A study of Mus musculus with 16 samples.

Results

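The 10 genes described here encode the transforming growth factor beta (TGF-beta) ligands, receptors and latency proteins: the ligands Tgfb1, Tgfb2 and Tgfb3, the signalling receptors Tgfbr1 and Tgfbr2, the coreceptor Tgfbr3, and the latent TGF-beta binding proteins Ltbp1, Ltbp2, Ltbp3 and Ltbp4. They were chosen by name, and all 10 had a row among the 36950 genes of the deposited matrix of UMIs (unique molecular identifiers, each standing for 1 captured RNA molecule). The matrix held 11492 cells isolated from left ventricles. They came from 16 mice, all male, of the pressure-overload model TAC (transverse aortic constriction: a band on the aorta makes the heart pump against a higher resistance). The mice fell into 5 stages, labelled 0w (2 mice), 2w (2), 5w (7), 8w (3) and 11w (2). Whether mice at 0w were operated on is not in the labels, and neither are strain and age. Hearts were digested in a protocol that enriched myocytes and in another, with a papain enzyme, for the other cells. The authors' annotation put the cells into the types CM (5656 cells), EC (1858), FB (1775), MP (1413), T (606) and GN (181) and into 47 subclusters. The annotation was checked against known markers, as the median share of thinned cells (below) with a UMI of a marker. The type's own markers were at 94.7% in CM (cardiomyocyte genes), 52.3% in FB (fibroblast), 28.0% in EC (endothelial) and 45.2% in MP (macrophage). The median over the pooled markers of the other types was 4.26% to 7.71% there. In T, T cell markers were at 10.4%, beside 9.38% for the markers of the other types together. They summed to 1196 CPM (UMIs per 1000000 UMIs outside mitochondrial genes), against 6.60 to 40.1 in the other types. B cell (629 CPM) and NK cell markers (646) were also found in T. In GN, whose name the labels do not explain, granulocyte markers were at 41.7%. The questions put to the genes were which types carry the ligand RNA, which carry the receptors and latency proteins, and whether these levels differed between stages.

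TGF-beta ligands are made as precursors whose propeptide stays bound to the mature ligand and keeps it inactive. Latent TGF-beta binding proteins attach to this complex and hold it in the extracellular matrix until integrins, proteases or thrombospondins release the ligand. The free ligand binds TGFBR2, which recruits and phosphorylates TGFBR1, and TGFBR1 in turn phosphorylates SMAD2 and SMAD3, which enter the nucleus with SMAD4. TGFBR3, also called betaglycan, presents the ligands, TGF-beta 2 above all, to the signalling receptors. Ltbp2 is the member of its family that does not bind latent TGF-beta. In the pressure-loaded heart the pathway is known for turning fibroblasts into matrix-making cells.

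The promoters of the 2 genes whose levels are described most closely, Ltbp2 and Ltbp4, are shown because the rest of the text turns on them. Both are stretches that end just before the annotated gene start, 5′ to 3′ on the gene's own strand, cut from RefSeq promoter windows of GRCm38.p6. Capitals mark the letters CAGAC or their reverse complement GTCTG, the core to which SMAD proteins can bind. Ltbp2 has the window chr12:84876533-84876741 (minus strand), and Ltbp4 has chr7:27337693-27337862 (minus strand).
Ltbp2: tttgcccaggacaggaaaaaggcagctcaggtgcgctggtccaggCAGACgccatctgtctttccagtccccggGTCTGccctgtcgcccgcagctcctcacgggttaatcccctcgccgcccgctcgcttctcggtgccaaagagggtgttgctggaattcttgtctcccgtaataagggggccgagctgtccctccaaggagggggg
Ltbp4: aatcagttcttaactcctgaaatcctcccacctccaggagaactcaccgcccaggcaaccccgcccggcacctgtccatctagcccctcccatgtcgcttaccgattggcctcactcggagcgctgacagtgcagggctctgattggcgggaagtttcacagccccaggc
The 209 bases of Ltbp2 held 2 matches, at bases 46 and 75 of the stretch, which are 205 and 176 bases before the RefSeq start because the stretch ends 41 bases short of it, and the 170 bases of Ltbp4 held none. Windows of the same length held the letters in 12177 of 32851 promoters (37.1%) for Ltbp2 and in 10459 (31.8%) for Ltbp4, so the presence or absence of these letters describes the windows and no more. The promoter table listed 8 of the 10 genes and had no entry for Tgfb3 or Tgfbr3. It held 3 starts for Ltbp4, and only the window of the start nearest the gene's 5′ end was searched and printed.

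Depth and quality differed between mice and plates. The 16 mice gave 113 to 1269 cells and 2844451 to 58650318 UMIs outside mitochondrial genes, and mitochondrial genes took 17.3% to 84.9% of a mouse's UMIs. No cell name was shared by 2 mice. Each of the 12 plates held mice of 1 stage, apart from plate E, which held 5w replicate 1 and 8w replicate 1, so between stages plate and stage cannot be told apart outside that plate. The CM of plate E stood apart: their summed cardiomyocyte markers were 9020 (5w) and 11470 (8w) CPM, against 25500 to 70680 in the other mice. Their summed fibroblast markers were 8488 (5w) and 6918 (8w) CPM, against 1252 to 3292. Their summed markers of mural (vessel wall) cells were 4610 (5w) and 2240 (8w) CPM, against 112 to 1089. Stage results in CM are given with and without this plate, and the differences between types whose call or sign it changed are named. Levels are CPM of 1 sum of all cells of a type in a mouse, for sums of at least 10 cells (14 mice had enough CM, 12 FB, 13 EC, 16 MP, 11 T and 6 GN), and a share of cells is the share with at least 1 UMI after each cell was thinned to 2000 UMIs. Nothing in the labels says more of the mice than that they are separate samples, and no level is compared between genes.

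RNA of all 10 genes was found, thinly. Tgfb1 gave 1875 UMIs in 319 cells (2.78% of all cells), the fewest, and Ltbp4 gave 73350 UMIs in 4182 cells (36.4%), the most. The other 8 genes were seen in 645 to 1967 cells. A few cells often carried much of a gene's count: in the FB of 0w replicate 1, for example, 95.4% of the Ltbp2 UMIs came from 1 cell. This is why each level below is given with its spread over mice and with the share of cells.

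FB held the broadest set of these RNAs. After thinning, 11.2% of FB had a UMI of any ligand (mean of mice 11.5% ± 3.27, SD, n = 12), against 4.03% of MP (4.35% ± 3.58, n = 16), 3.42% of CM (3.16% ± 1.21, n = 14), 2.95% of EC (3.69% ± 3.19, n = 13) and 2.18% of T (2.74% ± 3.29, n = 11). The receptors were spread more widely: 18.8% of FB, 15.6% of MP and 10.1% of EC had a UMI of Tgfbr1 or Tgfbr2, against 5.36% of T and 4.93% of CM. Any latent TGF-beta binding protein was seen in 52.9% of FB, 22.1% of EC, 13.9% of CM, 10.0% of MP and 7.54% of T. A ligand and a latency protein were seen in the same cell in 6.43% of FB (107 of 1665 cells, exact 95% binomial interval 5.30% to 7.71%, for counting error only) and in under 1% of CM, EC and MP. Both signalling receptors in 1 cell were rare at this depth: 0.781% of FB, 0.865% of MP and 0 of 597 T cells, which allows a share of up to 0.616%. Without thinning, at a median of 18335 UMIs per FB and 12469 per CM, the ligand shares were 25.1% of FB and 11.5% of CM, so the size of every share depends on depth.

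**Figure D1:**
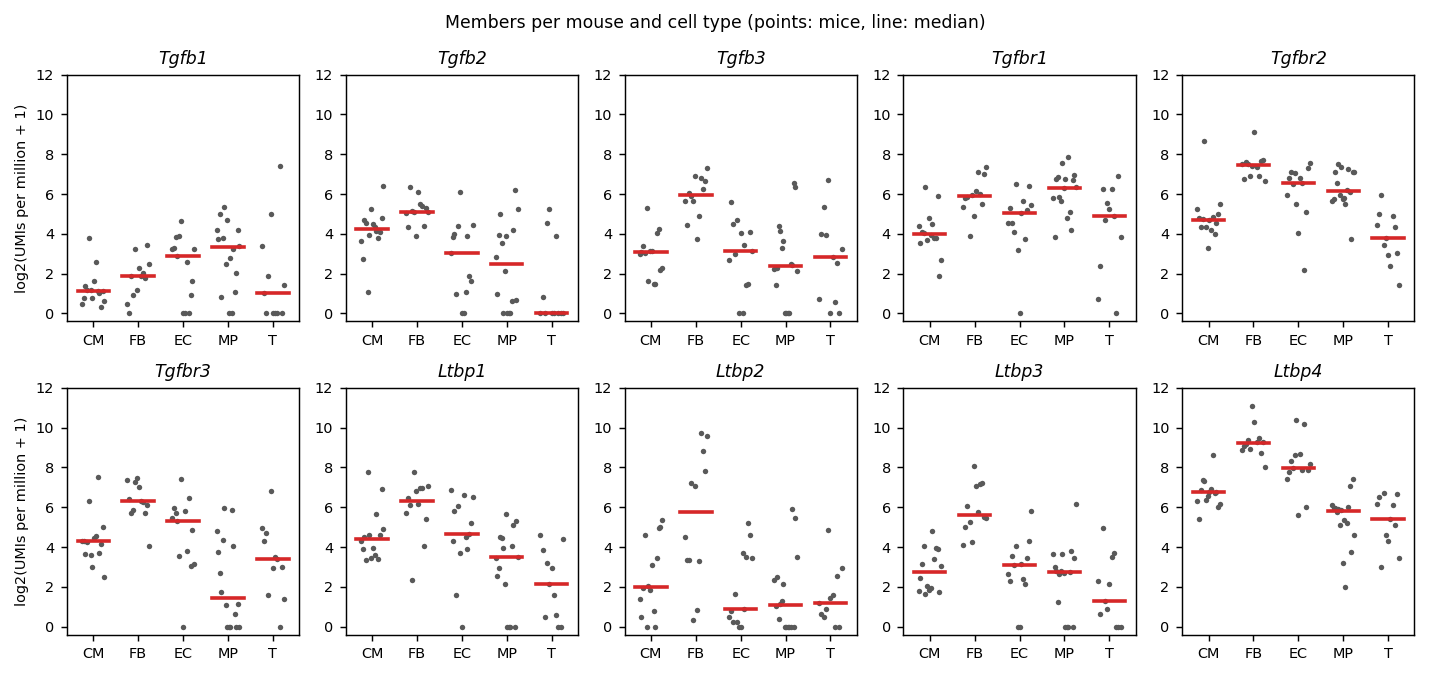
Level of the 10 genes in CM, FB, EC, MP and T, as log2(CPM + 1), with 1 point for each mouse and a line at the median. The median is highest in FB for 8 genes and highest in MP for Tgfb1 and Tgfbr1.

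Free RNA can give a cell UMIs of genes it does not make, so each level in another type, pooled over all its cells, was set against 7 fibroblast markers treated the same way. These markers stood in CM at a median of 8.28% of their FB level (4.69% to 14.4%), in EC at 10.8% (9.42% to 25.0%), in MP at 12.5% (9.56% to 18.5%) and in T at 8.16% (3.61% to 29.5%). Ltbp2 lay at or below that range in EC (2.06% of its FB level), MP (3.67%) and T (2.19%), and within it in CM (7.12%). Its pooled level in these types thus did not exceed that of the markers. By mouse, however, Ltbp2 in MP was above the marker median in 8 of 12 mice and above all 7 markers in 3. It was above all 7 in 2 of 10 mice in CM, 2 of 11 in T and 1 of 11 in EC. Whether these UMIs came from free RNA was not tested. Tgfb3 in CM (14.3%) was within the range, as were Tgfbr3 (14.5%), Ltbp1 (14.4%), Ltbp3 (16.1%) and Ltbp4 (11.1%) in MP. In contrast, Tgfb1 in MP stood at 347% of its FB level and was above all 7 markers in 11 of 12 mice, and Tgfbr1 in MP stood at 85.9% and was above them in 12 of 12. Tgfbr2 in MP (79.9%) was above every marker in 9 of 12 mice, Ltbp1 in EC (46.3%) in 9 of 11, and Ltbp4 (47.7%), Tgfbr1 (46.9%) and Tgfbr3 (39.8%) in EC in 8 of 11 each. Fibroblast markers gauge free RNA of FB only, and free RNA of CM was not gauged this way. Pooled over cells, cardiomyocyte markers summed to 47820 CPM in CM, 3053 in FB, 4930 in EC, 10510 in MP and 11800 in T.

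**Figure D2:**
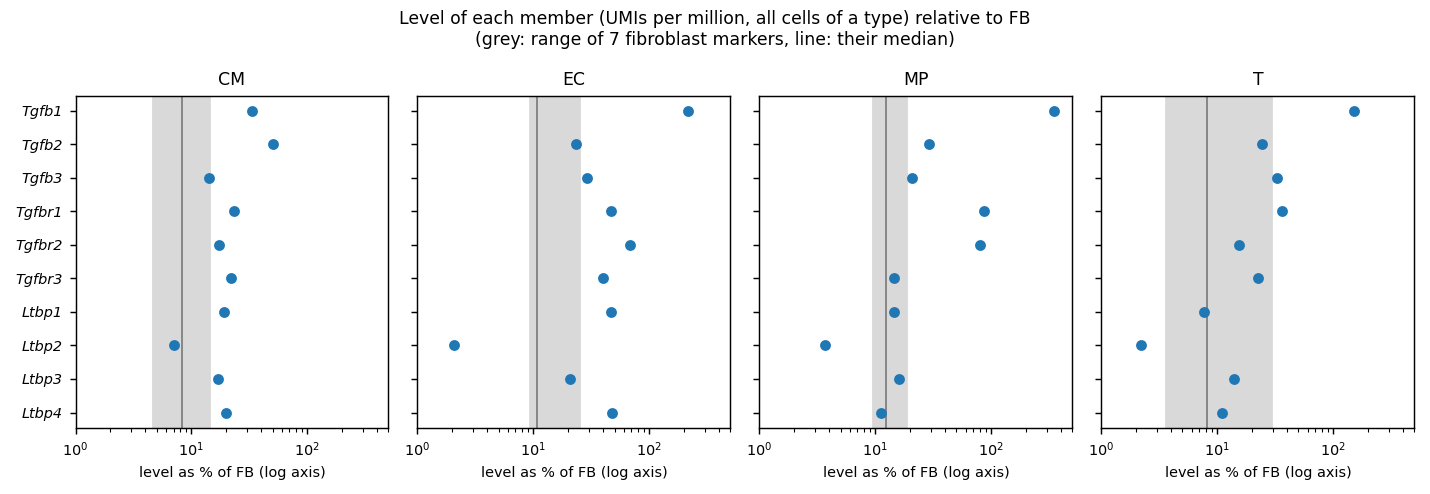
Level of each gene in CM, EC, MP and T as a percent of its level in FB (log axis), each pooled over all cells of the type. The grey band is the range of the 7 fibroblast markers and the grey line their median: Ltbp2 lies among or below the markers in every type, whereas Tgfb1, Tgfbr1 and Tgfbr2 lie above them in MP.

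Types were compared in 1 fit of the 66 sums of CM, FB, EC, MP and T over 13705 genes, with the mouse as a block (edgeR's quasi-likelihood test, Benjamini-Hochberg adjusted over all genes, threshold 0.05). Differences are on the log2 scale ± SE after scaling of the libraries, and the types were themselves named from the same RNA. FB was higher than T for 8 of the 10 genes (13.9% of all genes were), higher than MP for 6 (10.1%), higher than CM for 5 (6.82%) and higher than EC for 4 (6.33%). None of the 10 was higher in another type than in FB by this test (11.2% of all genes were in CM, 8.58% in MP, 8.49% in T and 4.12% in EC), and none was higher in T than in CM (8.46%), EC (8.3%) or MP (5.31%). MP was higher than CM for 2 genes (8.12% of all), higher than EC for 1 (8.05%) and higher than T for 2 (8.19%). CM was higher than MP for 3 (15.8%) and higher than T for 5 (18.6%), EC was higher than MP for 2 (6.64%) and higher than T for 3 (9.8%), and none of the 10 passed between CM and EC (11.2% of all genes were higher in CM and 2.79% in EC). In 3 of the 10 genes, Tgfb3, Ltbp2 and Ltbp3, the highest type passed against the next, each time FB, whereas 12.5% of all genes had such a leading type and 2.7% had FB as leading type. With cells thinned to 2000 UMIs before summing, an alternative chosen after seeing the data, Tgfb1, Ltbp2 and Ltbp3 were too low to test, and FB led for Tgfb3 and Ltbp4 among the other 7 (4.75% of all genes tested were led by FB). Without plate E, 4 calls were lost: MP over CM for Tgfb1 (adjusted p = 0.053), CM over MP for Ltbp1 (0.089), MP over T for Tgfbr1 (0.057) and CM over T for Tgfbr2 (0.079). Newly passed without plate E were MP over CM for Tgfbr2 (1.25 ± 0.41, adjusted p = 0.023), CM over T for Ltbp2 (2.54 ± 0.83, adjusted p = 0.022) and EC over T for Tgfbr3 (2.22 ± 0.69, adjusted p = 0.022). The sign changed for Tgfb2 between FB and CM, and for Tgfbr1, Tgfbr3 and Ltbp1 between CM and EC. It also changed for Ltbp3 between EC and MP, and for Tgfbr1 and Ltbp2 between EC and T. None of these differences passed with or without the plate.

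Among the ligands, Tgfb3 was the FB ligand. It lies at chr12:86056745-86079041 (minus strand, GRCm38, the build of the authors' mm10) and ranged over mice from 12.3 to 156 CPM in FB (median 61.8), against 1.77 to 38.9 in CM (median 7.41) and 0 to 92.2 in MP (median 4.19). In 10 of 10 mice with both types its level was higher in FB than in CM. FB exceeded MP, the next type in the fit, by 2.40 ± 0.65 (adjusted p = 0.0045), and 6.97% of thinned FB had a UMI.

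Tgfb2 was found in both FB and CM. This ligand, at chr1:186622792-186705989 (minus strand), ranged from 13.6 to 80.4 CPM in FB (median 33.7) and from 1.08 to 84.8 in CM (median 17.9), so the FB range lay within that of CM. Within mice, however, FB was above CM in 9 of 10 by CPM and in 10 of 10 by the share of thinned cells. The fitted difference of FB from CM, over all sums, was 0.21 ± 0.82 (adjusted p = 0.91), and it was -0.15 without plate E. In CM its pooled level stood at 50.4% of that in FB, above the range of the fibroblast markers there, and CM exceeded T (adjusted p = 0.034) but did not pass against MP (1.81 ± 0.76, adjusted p = 0.076).

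Tgfb1, the ligand best known from immune cells and platelets, had its highest median in MP. It lies at chr7:25687002-25705077 (plus strand) and ranged from 0 to 39.5 CPM in MP (median 8.98), from 0 to 24.0 in EC (median 6.49) and from 0 to 9.86 in FB (median 2.70). MP exceeded CM (0.270 to 13.0 CPM) by 2.27 ± 0.86 (adjusted p = 0.047, and 0.053 without plate E), and its difference from EC was 0.74 ± 0.81 (adjusted p = 0.65). T cells ranged from 0 to 168.7 CPM with a median of 1.07 and with 5 of 11 mice at 0, so their mean of 19.6 ± 50.3 rests on 1 mouse. Only 1.30% of thinned MP and 0.541% of thinned FB had a UMI, so the values of Tgfb1 rest on few cells.

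Of the signalling receptors, Tgfbr2 was highest in FB and Tgfbr1 in MP, and neither passed between those types. Tgfbr2, which binds the ligand, lies at chr9:116084293-116175360 (minus strand) and ranged from 99.8 to 551 CPM in FB (median 174), from 12.3 to 183 in MP (median 69.9), from 3.48 to 187 in EC (median 92.4) and from 8.63 to 408 in CM (median 25.3). FB exceeded CM by 1.89 ± 0.46 and also exceeded EC and T, whereas its difference from MP was 0.92 ± 0.42 (adjusted p = 0.12). The share of cells after thinning was 13.3% in FB, 10.8% in MP and 7.05% in EC. T lay below CM, EC, FB and MP (CM minus T 1.47 ± 0.49, adjusted p = 0.022, and 0.079 without plate E).

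Tgfbr1, the kinase that passes the signal to SMAD proteins, differed from Tgfbr2 in its order of types. It lies at chr4:47353222-47414931 (plus strand) and ranged from 13.1 to 229 CPM in MP (median 79.2), from 14.0 to 161 in FB (median 59.1), from 0 to 90.1 in EC (median 32.1) and from 2.73 to 80.9 in CM (median 14.96). MP exceeded CM by 1.52 ± 0.46 (adjusted p = 0.012), EC by 1.48 ± 0.48 (adjusted p = 0.026) and T (adjusted p = 0.042, and 0.057 without plate E). MP and FB did not differ beyond their spread (0.24 ± 0.48, adjusted p = 0.81), and after thinning the difference was -0.48.

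The coreceptor Tgfbr3 was low in MP. It lies at chr5:107106570-107289629 (minus strand) and ranged from 15.6 to 176 CPM in FB (median 77.9), from 0 to 168 in EC (median 39.4), from 4.74 to 181 in CM (median 18.5) and from 0 to 61.5 in MP (median 1.76, with 5 of 16 mice at 0). FB exceeded MP by 3.49 ± 0.59 and CM exceeded MP by 2.70 ± 0.59, and EC passed against MP as well. FB, CM and EC were not told apart (FB minus CM 0.79 ± 0.57, adjusted p = 0.39), but FB passed against CM after thinning (1.62, adjusted p = 0.0035).

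Ltbp4, a matrix protein needed for elastic fibres, was seen in more cells than any other of the 10 genes. It lies at chr7:27305136-27337692 (minus strand), downstream of the window printed above, and ranged from 256 to 2174 CPM in FB (median 595), from 47.2 to 1318 in EC (median 248), from 42.2 to 395 in CM (median 107), from 2.97 to 168 in MP (median 56.2) and from 6.89 to 103 in T (median 41.3). The fitted levels fell in that order, but not every step passed. FB exceeded CM by 1.67 ± 0.41, and CM exceeded MP by 1.81 ± 0.36 (adjusted p = 0.00014). EC over CM was 0.61 ± 0.39 (adjusted p = 0.34), and MP over T was 0.14 ± 0.39 (adjusted p = 0.87). The difference of FB from EC was 1.06 ± 0.39 (adjusted p = 0.073), and it passed without 8w replicate 2 (1.24, adjusted p = 0.041), without the low-count filter (adjusted p = 0.047) and after thinning (1.21, adjusted p = 0.00087). A UMI was seen in 41.1% of thinned FB, 18.0% of EC, 10.5% of CM and 6.92% of MP.

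Ltbp2, which sits on elastic fibres without carrying latent ligand, was an FB gene with a wide spread. It lies at chr12:84783212-84876532 (minus strand), and its FB levels ran from 0.260 to 838 CPM (median 77.2), against 0 to 39.5 in CM (median 2.96), 0 to 36.4 in EC (median 0.840) and 0 to 59.0 in MP (median 1.17). FB exceeded CM by 3.23 ± 0.78 (adjusted p = 0.0018) and EC by 4.55 ± 0.86. A UMI was seen in 11.3% of thinned FB.

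Ltbp1 and Ltbp3 carry latent ligand of all kinds. Ltbp3, at chr19:5740904-5758532 (plus strand), ranged from 16.2 to 264 CPM in FB (median 48.7) and from 2.16 to 26.8 in CM (median 5.89), and FB exceeded CM by 2.43 ± 0.67 (adjusted p = 0.0063). Ltbp1, at chr17:75005568-75392512 (plus strand), ranged from 4.12 to 218 CPM in FB (median 78.9), from 9.07 to 221 in CM (median 20.3) and from 0 to 118 in EC (median 24.6). For Ltbp1 FB did not pass against CM (0.73 ± 0.63, adjusted p = 0.48), but both were higher than MP and T (CM over MP not without plate E, adjusted p = 0.089).

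Some counts may belong to a neighbour. Exons of some of the 10 genes overlap those of another gene: Tgfb2 shares 124 bases with Gm29491, Tgfb3 shares 163 with Gm37804 and 257 with Gm48008, and Ltbp2 shares 764 with D030025P21Rik, all on the opposite strand, and Tgfbr3 shares 297 with Gm43422 on its own strand. The sources used here do not say whether strand was used in counting, so reads in these stretches cannot be assigned with certainty.

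Within types, the authors' subclusters differed most for Ltbp2 and Ltbp4. Ltbp2 was seen in 30.2% of thinned cells of FB3 and 29.0% of FB6, against 1.20% of FB1 and 1.06% of FB4. FB3 came mostly from plate L (60.1%, 11w) and FB6 mostly from plate K (60.3%, 11w), so these shares follow the stage as well as the subcluster. Within FB3 the share was 36.8% of 234 cells from 8w and 11w and 8.96% of 67 cells from 0w and 2w, and within FB6 it was 36.9% in late cells and 0 of 26 in early ones. Subclusters were made from the same RNA, so these are descriptions without a test.

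Outside FB, Ltbp4 and Tgfbr2 marked a few subclusters. Among EC, EC8, in which lymphatic endothelial markers summed to 20140 CPM, had a UMI of Ltbp4 in 39.4% and of Tgfbr2 in 21.2% of cells, and EC9 had them in 30.2% and 16.1%. Among MP, MP8 had Ltbp4 in 23.8%, Tgfbr2 in 20.8% and Ltbp1 in 9.23% of cells, and 50.4% of its cells came from plate E. Tgfbr1 reached 12.5% in MP6, of whose cells 60.6% came from plate F. Among FB, Ltbp4 was seen in 64.6% of FB5, of which 71.1% came from plate F. Among CM, CM4 had Ltbp4 in 32.5% and Tgfbr2 in 8.66% of cells.

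**Figure D3:**
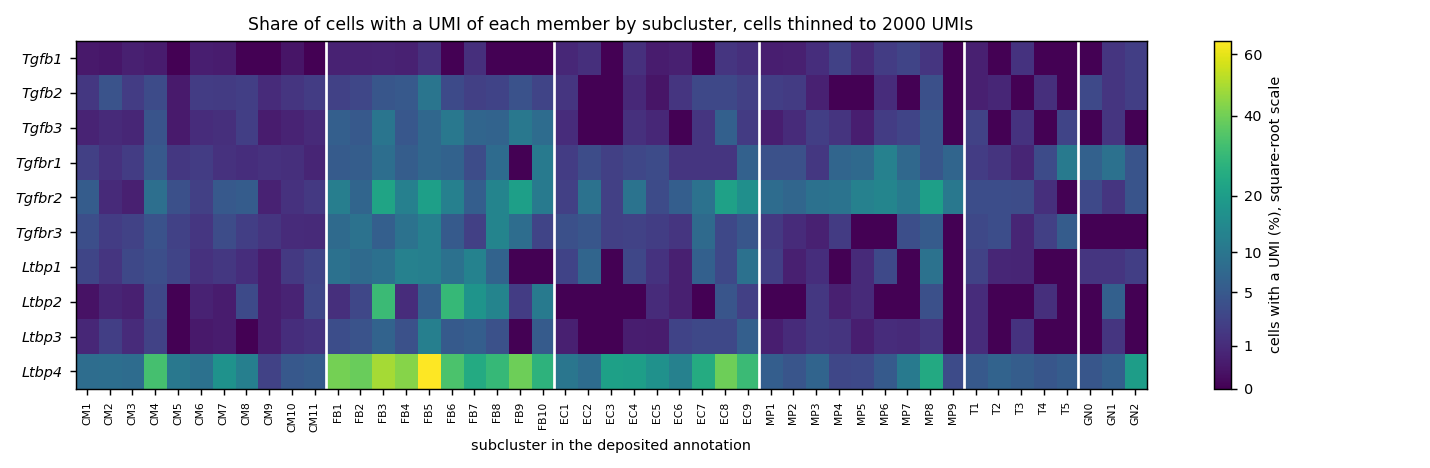
Share of cells with at least 1 UMI of each gene after thinning to 2000 UMIs, in percent, for each subcluster of at least 30 cells. Brighter colours mark higher shares: Ltbp2 is bright in FB3 and FB6, and Ltbp4 is bright across FB and in EC8 and EC9.

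Between stages, none of the 10 genes passed the threshold in any type, and few genes of any kind did. The test over all 5 stages called 0.0727% of genes in CM, 0.104% in FB, 1.1% in EC, 0.212% in MP and 0.344% in T, and 0 of the 10 described here in each (0 of 9 in T, where Ltbp2 was too low to test). The contrast of late (8w and 11w) against early (0w and 2w) mice called 0.00661% of genes in CM and 0% in FB, EC, MP and T, and again none of the 10. At an unadjusted p under 0.05 the test over stages had 2 of them in CM (11.4% of all genes), 0 in FB (12.6%), 1 in EC (14.9%), 1 in MP (9.36%) and 0 in T (15%). At the same threshold late against early had 2 in CM (9.13%), 2 in FB (9.84%), 1 in EC (9.24%), 1 in MP (6.34%) and 0 in T (12.8%), so these counts are near the shares over all genes. DESeq2 called Tgfb2 and Ltbp2 in CM over stages (6.03% of all genes) and for 11w against 0w (0.853%), Ltbp2 in CM for late against 5w (3.02%) and Ltbp2 in EC for late against early (0.653%). Without the low-count filter the test over stages called Ltbp1 and Ltbp2 in CM (5.08% of all genes) and Ltbp2 in FB (3.89%). The median log2 change of the 10 genes from early to late was 0.71 in CM (0.50 without plate E), 0.84 in FB, -0.11 in EC, 0.85 in MP and -1.72 in T, beside medians over all genes of -0.04, -0.01, -0.13, -0.09 and -0.69.

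In CM, FB, EC and MP the largest early to late value of the 10 genes was that of Ltbp2, none past the threshold. Its FB levels were 21.9 and 9.14 CPM at 0w, 9.39 and 149 at 2w, 0.260, 133 and 0.766 at 5w, 8.72, 838 and 449 at 8w, and 227 and 767 at 11w. The share of thinned FB with a UMI was 1.68% and 0.73% at 0w, 0.63% and 6.12% at 2w, 0%, 10.3% and 0% at 5w, 1.47%, 23.0% and 29.2% at 8w, and 16.8% and 31.2% at 11w. By both measures 4 of 5 late mice lay above all 4 early mice, and the exception was 8w replicate 1 of plate E, at 8.72 CPM beside 0.260 in the 5w mouse of the same plate. Pooled over cells, the share was 10 of 513 (1.95%) in early, 5 of 310 (1.61%) in 5w and 173 of 842 (20.6%) in late mice. The log2 change from early to late was 3.65 ± 1.79 (adjusted p = 0.55), it was 4.00 ± 1.06 (adjusted p = 0.31) without plate E, and it passed only without the low-count filter (3.68 ± 0.50, adjusted p = 1.4e-09, 0.309% of all genes called). Single cells weighed on some values: 1 cell held 81.3% of the Ltbp2 UMIs in 5w replicate 2, 64.2% in 2w replicate 2 and 39.8% in 8w replicate 2. Other markers moved in the same mice. The summed fibroblast markers of FB were 25340 to 31690 CPM in the early mice and 31760 in 8w replicate 1, but 22450 and 19080 in the other 8w mice and 26040 and 16280 at 11w. Summed granulocyte markers were 21.0 to 76.7 CPM in these 4 late mice, against 4.49 to 9.50 in early mice, 1.76 in 8w replicate 1 and 1.43 to 192 at 5w, and their part in the Ltbp2 values was not tested.

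**Figure D4:**
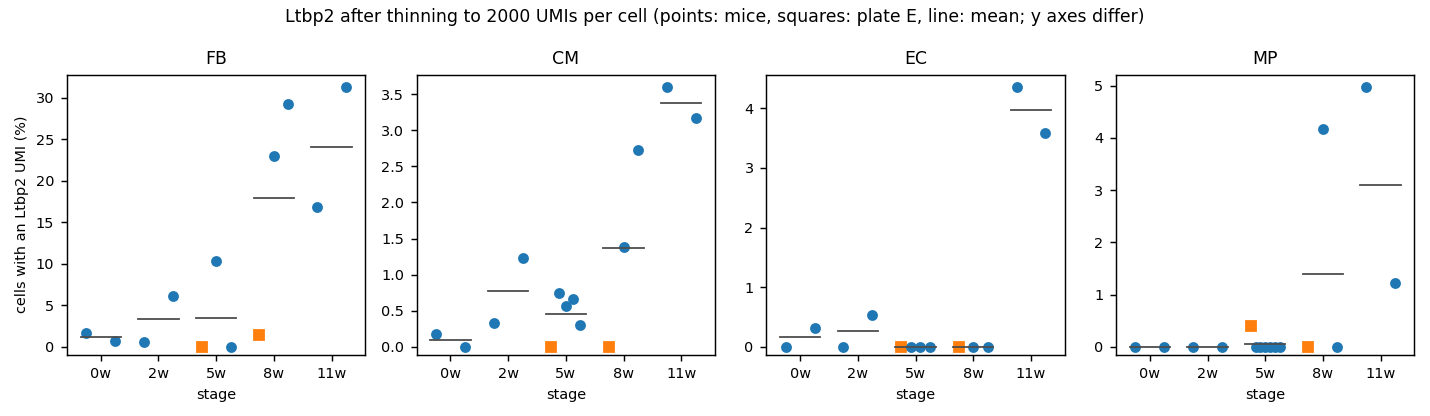
Percent of thinned cells with an Ltbp2 UMI by stage in FB, CM, EC and MP, with 1 point for each mouse, squares for plate E and a line at the mean (the y axes differ). In FB the late mice other than 8w replicate 1 of plate E lie above the early mice.

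In the other types Ltbp2 had lower counts and positive values that did not pass. In CM the levels were 1.59 and 0.41 CPM at 0w, 2.85 and 23.0 at 2w, 0 to 7.67 at 5w (5 mice, median 2.57), 0, 9.82 and 30.3 at 8w, and 31.6 and 39.5 at 11w. The late against early change was 3.09 ± 1.17 in CM (adjusted p = 0.46), 4.42 ± 1.48 in EC (adjusted p = 0.26) and 3.33 ± 1.49 in MP (adjusted p = 0.70). In MP the value was -1.43 without 8w replicate 2, in which 61.9% of the Ltbp2 UMIs came from 1 cell. The summed fibroblast markers in CM were 1342 to 3292 CPM in early mice and 1295 to 1714 in the 4 late mice outside plate E, in which CM Ltbp2 was 9.82 to 39.5. They were 6918 in 8w replicate 1 of plate E, in which CM Ltbp2 was 0. FB Ltbp2 was 227 to 838 CPM in the 4 late mice outside plate E, against 9.14 to 149 in early mice. The part of free RNA in CM Ltbp2 was not tested.

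Without plate E some of the 10 genes passed in CM. The test over stages then called 3.88% of genes and 3 of the 10, Ltbp1 (adjusted p = 0.024), Ltbp2 (0.028) and Tgfb2 (0.031), by edgeR's quasi-likelihood test over 12 mice. With plate E included their adjusted p was 0.32 to 0.54 in the same test. With 1 further mouse left out as well, 0 to 2 passed, none of them without 0w replicate 2. The 11w against 0w contrast called 2 of 10 (0.591% of all genes), Tgfb2 at 3.32 ± 0.64 (adjusted p = 0.042) and Ltbp2 at 5.75 ± 1.19 (adjusted p = 0.049). The late against 5w contrast called 1 of 10 (2.72% of all genes), Ltbp2 at 3.26 ± 0.75 (adjusted p = 0.039), whereas late against early called none of 10 (0.578% of all genes), with Ltbp2 at 3.38 ± 0.75 (adjusted p = 0.063).

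The other FB genes differed little or with overlap. Tgfbr1 was 39.1 and 54.8 CPM at 0w, 57.7 and 14.0 at 2w, 60.5, 28.5 and 68.9 at 5w, 138, 63.4 and 44.5 at 8w, and 128 and 161 at 11w. The 3 highest values were those of the 11w mice and of 8w replicate 1, and the late against early change was 1.32 ± 0.56 (adjusted p = 0.47). In plate E, where 2 stages share a plate, Tgfbr1 was 60.5 at 5w and 138 at 8w.

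Tgfb1 in FB was 0.40 and 0 CPM at 0w, 2.71 and 0.94 at 2w, 8.45, 1.24 and 3.83 at 5w, 2.69, 3.06 and 2.47 at 8w, and 9.86 and 4.53 CPM at 11w. Its change was 2.68 ± 1.16 (adjusted p = 0.48), and early and late mice overlapped. Tgfb3 in FB had a change of 0.95 ± 0.60 (adjusted p = 0.64), with 20.8 to 64.9 CPM in early and 28.6 to 156 in late mice.

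Tgfbr3 and Ltbp4 in FB had their highest values at 5w. Tgfbr3 was 164 and 83.3 CPM at 0w, 52.4 and 56.6 at 2w, 152, 176 and 129 at 5w, 79.8, 76.0 and 51.9 at 8w, and 68.1 and 15.6 at 11w. The 3 mice at 5w did not overlap with the 5 late mice, and late against 5w was -1.30 ± 0.48 (adjusted p = 0.43, 0% of all genes called). In plate E it was 152 at 5w and 79.8 at 8w. Ltbp4 was 462 and 546 at 0w, 573 and 674 at 2w, 491, 2174 and 1265 at 5w, 630, 704 and 420 at 8w, and 616 and 256 at 11w. Its late against 5w difference was -1.07 ± 0.36 (adjusted p = 0.43), or -1.51 ± 0.32 without plate E (adjusted p = 0.080). The high 5w values were those of plate F, which held 29 and 43 FB, whereas 5w replicate 1 of plate E did not stand above the late mice.

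**Figure D5:**
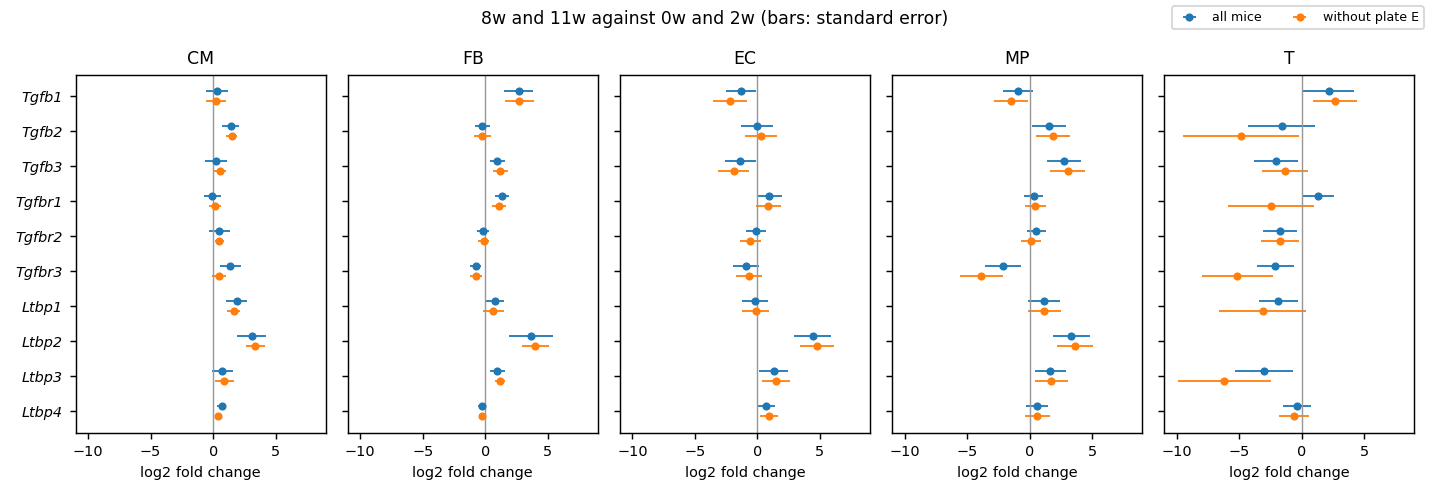
Late (8w and 11w) against early (0w and 2w) log2 fold change (points) with its SE (bars) for each gene in CM, FB, EC, MP and T, for all mice and without plate E. Ltbp2 lies to the right of 0 in CM, FB, EC and MP, and no point passed the adjusted threshold of 0.05.

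The late against early change was also compared between types, for 6 pairs of CM, FB, EC and MP over 17706 genes. None of the 10 genes passed in any pair, and the smallest p was that of Tgfb1 between FB and EC (4.02 ± 1.47, unadjusted p = 0.0088, adjusted p = 0.57). In 5 of the pairs 0% of genes passed, and between EC and MP 0.0169% did. A difference between types in how these genes changed is therefore not shown by these data.

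The rest of the pathway was followed through 4 lists, chosen with earlier results of these data known. Of the 15 measured genes known as targets of the pathway, 14 had a positive late against early change in CM (median 1.14 on the log2 scale, against -0.04 over all genes), and again 14 without plate E (1.27, against -0.07). There were 11 in FB (median 1.26, against -0.01), 9 in EC (1.27, against -0.13), 7 of 14 in MP (0.20, against -0.09) and 7 of 15 in T (-0.32, against -0.69). The test over stages called 1 of these targets in CM and 1 in FB (0.0727% and 0.104% of all genes) and none in EC, MP or T. In CM this was Postn, a matrix protein of activated fibroblasts (adjusted p = 0.018), with 9.32 to 131 CPM in early and 82.8 to 182 in late mice, and with 15.1 at 5w and 162 at 8w in plate E. In FB it was Comp, a matrix protein of cartilage and scar (adjusted p = 0.027): Comp was 0.607 to 4.18 CPM in early mice, 1.48 in 8w replicate 1 of plate E, and 224 to 457 in the other late mice. FB Comp and FB Ltbp2 thus had the same exception among the late mice. Postn in FB was 105 to 1313 CPM in early mice and 1195 to 2277 in the late mice outside plate E. In plate E, FB Postn was 66.0 at 5w and 74.4 at 8w. The CM value of that 8w mouse was higher, with 75.7% of its UMIs in 1 cell. The part of free RNA in CM Postn and in the positive changes of the CM targets was not tested.

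None of the 21 genes that release or bind latent ligand, the 5 coreceptors and membrane inhibitors or the 16 transducers and regulators passed between stages with plate E included. Their median changes were 0.57, -0.19 and 0.56 in CM (0.50, -0.28 and 0.24 without plate E) and -0.03, 0.43 and 0.08 in FB. Without plate E the late against early contrast called 0.578% of all genes in CM. It called Thbs1, a protein that frees latent ligand (2.18 ± 0.44, adjusted p = 0.048). It also called the targets Ctgf (1.96 ± 0.28, adjusted p = 0.010) and Postn (2.30 ± 0.31, adjusted p = 0.0070). In FB it then called Pmepa1, an inhibitor of the pathway that the pathway itself induces (1.76 ± 0.26, adjusted p = 0.045), and Comp (7.54 ± 0.57, adjusted p = 0.00071), with 0.0619% of all genes called. Over stages without plate E list genes also passed, given here as counts. In CM these were 2 genes that release or bind latent ligand, 2 transducers or regulators and 4 targets (3.88% of all genes called). In FB they were 1, 1 and 2 (19 of 14542 genes called). In MP 1 release or binding gene passed (26 of 11905 genes called), and in T 1 such gene and 1 target (207 of 11755). The part of free RNA in the CM values of Thbs1, Ctgf and Postn was not tested.

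The genes whose levels ran most like each of the 10 were taken from 9154 genes over the 66 sums, by Pearson's r of log2(CPM + 1), as a description. Of the latency proteins, Ltbp4 was most like Sulf1 (r = 0.86), Nid1 (0.80) and Ppap2b (0.80), Ltbp2 most like Thbs4 (0.75), Cilp (0.74) and Dio2 (0.73), Ltbp3 most like Serping1 (0.75), Rbms3 (0.75) and Thbs3 (0.74), and Ltbp1 most like Casp12 (0.75), Csf1 (0.71) and Kcnt2 (0.70). Of the ligands, Tgfb3 was most like Enpp1 (0.72), Pcolce (0.71) and Mfap4 (0.71), Tgfb2 most like Matn2, 0610007N19Rik and Ghr (each 0.67), and Tgfb1 most like Nfam1 (0.61), Clec4a3 (0.60) and Zswim6 (0.55). Of the receptors, Tgfbr2 was most like Itm2b (0.74), Cd63-ps (0.72) and Ifitm3 (0.72), Tgfbr3 most like Prkcdbp (0.73), Gm7334 (0.71) and S100a16 (0.70), and Tgfbr1 most like Akr1a1 (0.69), Cmpk1 (0.67) and Stx4a (0.66). Among the 10 themselves the highest r was 0.68, for Tgfbr3 and Ltbp4. The sums share mice, plates and depth, so these values hold both type and library differences.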

How the data were processed

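The authors deposited a matrix of raw UMI counts per gene and cell and a table with each cell's mouse, plate, type, subcluster and number of UMIs. The submitters' processing notes name Subread 1.4.6-p1, featureCounts, STAR 2.5.2b, and the builds mm10 and GRCh37. How strand, UMI duplicates and doublets were treated is not stated in the sources used here. All annotated cells were used, with no further filter and no doublet caller. The deposited UMI number equals the matrix total in 73.9% of cells, and in every cell of 9 of the 12 plates.

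The 34 mitochondrial genes were left out, counts were summed per mouse and type (at least 10 cells), filtered with filterByExpr, scaled by TMM and fitted with edgeR 4.0.16 (limma 3.58.1, R 4.3.3; robust quasi-likelihood test, two-sided, Benjamini-Hochberg adjusted over all genes). Printed CPM carry no TMM factor, so folds can differ from ratios of CPM. DESeq2 1.42.0 was an alternative, and the fits were tested on simulated data. For thinning, 361 cells under 2000 UMIs (183 CM, 110 FB, 28 EC, 25 MP, 9 T, 6 GN) were left out. The 10 genes and all lists were chosen with earlier results of these data known. The text names all 10 and the 3 most alike genes. It names list genes past the threshold with plate E included, or in late against early without it. List genes past the threshold over stages without plate E are given as counts. P-values measure the spread between these mice. Intervals cover counting error only. Thinned sums, and plate E left out with 1 more mouse, were alternatives chosen after seeing the data; no filter, RLE or no scaling, mitochondrial genes kept, 20 cells per sum, single mice or plate E left out and a replicate block were the others.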

Additional observations from a re-analysis of the deposited data

Results flagged for a closer look

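In 8 of the 30 groups of 4 to 10 mice tested, the highest mouse stood apart from the others by Dixon's criterion at the 95% level. All 30 were 5w groups that share mice, and the counts are sparse and skewed. The criterion's error rate therefore does not hold here, and the flags are descriptions. In CM, 5w replicate 1 of plate E stood apart for 5 genes: Tgfb3 at 38.9 CPM (next highest 7.93, with 77.8% of 36 UMIs in 1 cell), Tgfbr1 at 80.9 (next 26.6, 68.0% of 75 UMIs), Tgfbr2 at 408 (next 25.0, 65.3% of 378 UMIs), Tgfbr3 at 79.9 (next 22.8, 91.9% of 74 UMIs) and Ltbp1 at 221 (next 23.6, 57.6% of 205 UMIs). Summed fibroblast markers in that CM sum were 8488 CPM and mural markers 4610, beside 9020 for cardiomyocyte markers. Ltbp3 in CM of 5w replicate 7 stood at 26.8 CPM (next 3.07), with 90.6% of 106 UMIs in 1 cell. Ltbp2 in EC of 5w replicate 7 stood at 12.03 CPM (next 0.195) on 3 UMIs, and Ltbp2 in MP of 5w replicate 3 at 3.42 CPM (next 1.46) on 3 UMIs.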

How the results depend on the processing

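Of the values recomputed under other settings, 1085 were the same, 66 moved, 10 newly passed the threshold and 16 changed sign. The CM test over stages had 2 members without the low-count filter (5.08% of all genes called), 2 with DESeq2 (6.03%) and 3 without plate E (3.88%), and 0 to 2 when 1 mouse was left out alone or with plate E. In CM, late against early had 0 to 2 members in these fits: without plate E and 11w replicate 1, Tgfb2 and Ltbp2 passed. Without the low-count filter FB had 1 member, Ltbp2, in the test over stages (3.89%) and 1 in late against early (0.309%), and DESeq2 had 1, Ltbp2, in EC (0.653%). In T, 0 to 1 passed, Tgfb1 without plate E and 2w replicate 1 or 2. With thinned cells, late against early in FB was 0.39 for Tgfbr2 and 0.025 for Ltbp4, and MP minus FB for Tgfbr1 was -0.48. Tgfb2, FB minus CM, was -0.15 without plate E and -0.011 to 0.47 with 1 mouse left out. With 1 mouse left out, alone or with plate E, late against early ran from -0.56 to 0.15 for FB Tgfb2, from -0.42 to 0.066 for FB Tgfbr2, from -0.42 to 2.31 for FB Ltbp1 and from -1.43 to 5.01 for MP Ltbp2. The cause was not tested.

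Same-numbered mice of different stages correlated at -0.02 to 0.21 in CM and passed 0.1 in 1 of 16 pairs there. They passed it in 1 of 21 pairs in FB, 1 of 17 in EC, 1 of 21 in MP and 0 of 17 in T. The main fits used the numbers only to name mice. Whether same-numbered mice share anything was not tested. With a replicate block 0 members were called in every type. The block took the genes called over stages from 11 to 0 in CM, 16 to 0 in FB, 159 to 2 in EC, 28 to 37 in MP and 39 to 97 in T, and FB Ltbp2 was 2.83 ± 1.21 (adjusted p = 0.58). Depth limits Tgfb1 (1875 UMIs in 319 cells) and the share of cells with both receptors.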
